A study of Mus musculus with 3 samples.

Results

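The Slit ligands, their Robo receptors and the Srgap proteins that act below the receptors were examined in sorted ureteric duct cells of the mouse embryo. The members were Slit1, Slit2, Slit3, Robo1, Robo2, Robo3, Srgap1, Srgap2 and Srgap3. All 9 had a probe set of their own, among 19938 genes measured. Robo4, which is known from endothelium, was left out of the family and is given only among the endothelial markers. The data were 3 arrays of a single group, with no second condition: ureteric duct cells of CD-1 embryos at 10.5 dpc (Theiler stage 18), of unknown sex, carrying the transgene Tg(Hoxb7-EGFP)33Cos, in which the Hoxb7 promoter drives green fluorescent protein in the duct. Each sample came from 1 duct, whose cells were freed by microdissection and trypsin and then sorted by fluorescence. Its RNA was amplified in 1 round and hybridised to 1 Affymetrix array, and the arrays are called 1, 2 and 3 after the sample titles. Since no label gives separate embryos or litters, p-values measure the spread between these samples only, and that spread may be technical.

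Slits are large secreted proteins with leucine-rich repeats, and Robo proteins are single-pass receptors of the immunoglobulin superfamily that bind them. An activated Robo recruits Srgap proteins, which switch off small GTPases and so change the actin cytoskeleton. The system is best known for repelling axons from the midline. In the mouse kidney, Slit2 and Robo2 are known to keep the ureteric bud to a single site: without either gene, the domain of Gdnf, the ligand of Ret, extends too far forward and extra buds form.

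Each value is a log2 signal, and the question asked of each gene was whether its signal lay above the background of its array. Background came from the 1210 probe sets of odour and pheromone receptor genes (olfactory and vomeronasal), whose expression is known from sensory neurons. They are called receptor probe sets. The 95th percentile of these probe sets was the cutoff, at 5.71 log2 units on average over the arrays. A gene whose distance from the cutoff had a Benjamini-Hochberg adjusted p under 0.05 in limma's one-sided test is said to pass. Probe sets differ in affinity, so no gene's signal is set against another's as an amount of transcript. A probe set is called tied where the deposited value was identical on all 3 arrays, which held for 50.8% of genes. The fitted spread of a tied probe set comes only from the cutoffs and from moderation, and its p is too small.

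Of the 9 genes, 8 passed, against 56.1% of all genes tested, and Robo3 did not. The members' median signal was 6.47, against 6.04 over all genes. With the stricter 99th percentile as cutoff, 6.38 log2 units on average, 3 of the 9 passed (Slit2, Robo1 and Srgap2), or 1 ligand, 1 receptor and 1 Srgap, against 36.1% of all genes. A cutoff 1 log2 unit higher left the same 3, against 28.3% of all genes. At both higher cutoffs the members' share was close to that of all genes.

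The promoters of these 3 genes and of Robo3 are shown because they belong to the members farthest above background and to the one below it. They are RefSeq sequences of build GRCm38.p6, running from 250 bases before to 50 bases after the transcript start, 5′ to 3′ on the strand of the gene, with motif matches in capitals.
Slit2, chr5:47982905-47983204, plus strand: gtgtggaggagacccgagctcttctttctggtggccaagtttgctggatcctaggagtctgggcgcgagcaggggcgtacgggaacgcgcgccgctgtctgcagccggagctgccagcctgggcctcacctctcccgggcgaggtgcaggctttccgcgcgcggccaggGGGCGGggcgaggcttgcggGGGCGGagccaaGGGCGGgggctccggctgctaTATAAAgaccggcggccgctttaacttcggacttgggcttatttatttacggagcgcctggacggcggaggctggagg
Robo1, chr16:72662899-72663198, plus strand: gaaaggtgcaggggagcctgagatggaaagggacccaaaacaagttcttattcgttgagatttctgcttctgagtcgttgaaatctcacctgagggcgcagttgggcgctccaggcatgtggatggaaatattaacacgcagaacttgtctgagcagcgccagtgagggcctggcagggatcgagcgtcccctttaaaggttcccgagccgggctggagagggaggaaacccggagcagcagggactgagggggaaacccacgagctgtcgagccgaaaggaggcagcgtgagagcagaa
Srgap2, chr1:131527312-131527611, minus strand: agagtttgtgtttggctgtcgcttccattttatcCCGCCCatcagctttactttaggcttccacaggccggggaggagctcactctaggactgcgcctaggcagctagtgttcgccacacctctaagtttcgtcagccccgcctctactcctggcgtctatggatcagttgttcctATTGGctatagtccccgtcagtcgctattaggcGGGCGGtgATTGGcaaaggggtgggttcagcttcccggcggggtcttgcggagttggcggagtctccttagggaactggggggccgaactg
Robo3, chr9:37433126-37433425, minus strand: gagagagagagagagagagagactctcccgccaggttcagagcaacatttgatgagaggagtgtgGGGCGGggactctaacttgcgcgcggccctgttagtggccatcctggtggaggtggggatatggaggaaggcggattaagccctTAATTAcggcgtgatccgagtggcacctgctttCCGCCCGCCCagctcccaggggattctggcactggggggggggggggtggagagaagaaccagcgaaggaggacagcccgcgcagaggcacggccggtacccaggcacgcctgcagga
The motifs searched, on both strands, were the TATA box as TATAAA, the CCAAT box under that spelling, the GC box as GGGCGG, a form bound by Gata factors as AGATAA, and a core bound by many homeodomain proteins as TAATTA. A run of capitals can hold overlapping matches, as the pair of GC boxes in Robo3 does.

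The Slit2 promoter held a TATA box that begins 28 bases before the start, and 3 GC boxes that begin 81, 61 and 49 bases before it. A TATA box occurred in 13.6% of the 32817 promoters in the table, and a GC box in 35.6%. The Robo1 promoter held none of the 5 motifs. The Srgap2 promoter held 2 CCAAT matches and 2 GC boxes, and CCAAT occurred in 37.4% of all promoters. The Robo3 promoter held 3 GC boxes and a TAATTA match, a motif present in 5.3% of all promoters. RefSeq promoters were matched for 8 of the 9 members, all but Slit1, with 10 starts in all, of which 3 were for Robo2. A GC box was found at 6 of the 10 starts, the others being those of Robo1 and Robo2. A TATA box was found at 2 of the 10, those of Slit2 and Srgap3. AGATAA was found at 1 of the 10, a Robo2 start, and in 11.2% of all promoters. A match describes letters in the sequence, not a binding site.

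Among the ligands, Slit2, which the Wolffian duct of the mouse is known to make, stood farthest above background. It read 9.87, 10.12 and 9.94 on arrays 1, 2 and 3. Its values lay within 0.25 log2 units of each other, and every array was far above its cutoff. The mean of 9.98 ± 0.13 (SD, n = 3) was 4.27 log2 units above the cutoff (limma, Benjamini-Hochberg adjusted p = 9.6e-06). Of the 1210 receptor probe sets, 0 had a higher mean, and 96.7% of all genes had a lower one. No other probe set on the arrays shared its values.

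The other ligands lay close to background. Slit3, a ligand known from muscle and the vessel wall, read 6.25 on every array. It was 0.54 log2 units above the cutoff (limma, adjusted p = 6.3e-05), and 18 receptor probe sets had a higher mean. The Slit3 value was shared by 5 other probe sets. Slit1, the ligand best known from the nervous system, read 5.87 on every array, and 45 receptor probe sets, or 3.72%, read higher. Slit1 was 0.16 log2 units above the cutoff (limma, adjusted p = 0.0015). Its exact value was also held on all 3 arrays by 67 other probe sets, covering 60 other genes. The Slit1 call was lost when tied probe sets were given the spread of untied ones (limma, adjusted p = 0.063), and without array 3 (limma, adjusted p = 0.22), a fit that gave all genes one common spread. Slit3 kept its call in both settings, and neither ligand passed at the 99th percentile.

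Among the receptors, Robo1 was farthest above background. It is a broadly expressed receptor of axons, lung and vessels, and read 8.20 on every array. This was 2.48 log2 units above the cutoff (limma, adjusted p = 2.9e-06), and 1 of the 1210 receptor probe sets had a higher mean. No other probe set shared the value. Robo2, the receptor whose loss gives extra ureteric buds in the mouse, read 5.90 on every array. It passed at 0.19 log2 units above the cutoff (limma, adjusted p = 0.00091), but 41 receptor probe sets read higher, and 71 other probe sets, 1 of them a receptor probe set, held the same value on all arrays. Robo2 lay 0.47 log2 units below the 99th percentile cutoff. It lost its call without array 3 (limma, adjusted p = 0.15), the fit that gave all genes a common spread, though its distance stayed at 0.19. It kept the call when tied probe sets were given the spread of untied ones (limma, adjusted p = 0.037).

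Robo3, a divergent receptor known for guiding commissural axons across the midline, read 5.63 on every array and lay below the cutoff on each. It was at -0.08 log2 units from the mean cutoff (limma, adjusted p = 1), and 78 receptor probe sets, or 6.45%, read higher. Robo3 shared its value with 7 other probe sets. It passed only with the cutoff lowered to the 90th percentile, where all 9 members and 65.5% of all genes passed. In the reference gene table Robo1 and Robo2 are neighbours on chromosome 16, and Robo3 and Robo4 are neighbours on chromosome 9.

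**Figure D1:**
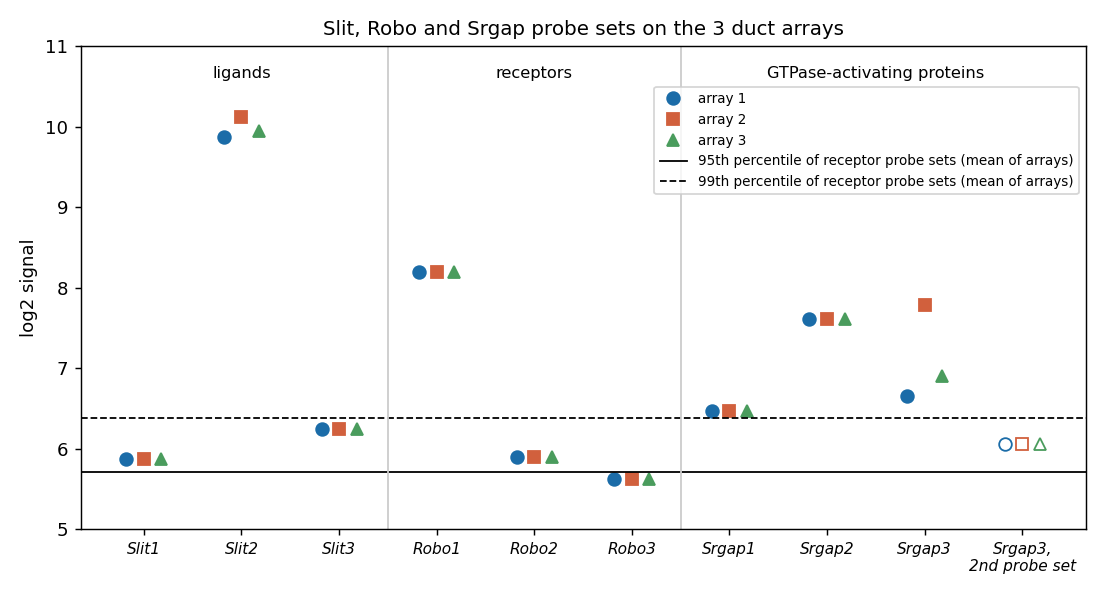
Log2 signal of each Slit, Robo and Srgap probe set on the 3 arrays (circles, squares and triangles for arrays 1, 2 and 3; open symbols for the second Srgap3 probe set), with the mean 95th and 99th percentile cutoffs as solid and dashed lines. Slit2, Robo1, Srgap1, Srgap2 and the brighter Srgap3 probe set lie above both lines on every array, and Robo3 at 5.63 lies below both.

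The plot of signals by array shows that 7 of the 9 members were tied, and only Slit2 and Srgap3 varied.

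All 3 Srgap genes passed. Srgap2, which remodels membranes through its F-BAR domain and acts on Rac1, read 7.61 on every array, 1.90 log2 units above the cutoff (limma, adjusted p = 4.4e-06). Of the receptor probe sets, 1 had a higher mean, and 3 other probe sets held the same value on all arrays. Srgap1, which acts on Cdc42, read 6.47 on every array, 0.76 log2 units above the cutoff (limma, adjusted p = 2.7e-05). Its value was shared by 5 other probe sets. At the 99th percentile Srgap1 was 0.09 log2 units above the cutoff and did not pass (limma, adjusted p = 0.1).

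Srgap3, also called Wrp, acts on Rac1 and was the most variable member. It read 6.66, 7.79 and 6.91 on arrays 1, 2 and 3. Array 2 was the high one, and all arrays lay above their cutoffs. The mean of 7.12 ± 0.60 (SD, n = 3) was 1.41 log2 units above the cutoff (limma, adjusted p = 0.011). Only 475 genes, or 2.38% of all genes, had a range as large as its 1.13 log2 units. That share counts tied genes, 50.8% of all, which have no range. The median SD of genes that were not tied was 0.111. A second Srgap3 probe set read 6.06 on every array, 0.35 log2 units above the cutoff, and 29 other probe sets held the same value. The probe sets of this gene differed in level, and the array difference was seen with the brighter one only. The other was tied, so it cannot decide whether that difference holds. Srgap3 did not pass at the 99th percentile (limma, adjusted p = 0.053).

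**Figure D2:**
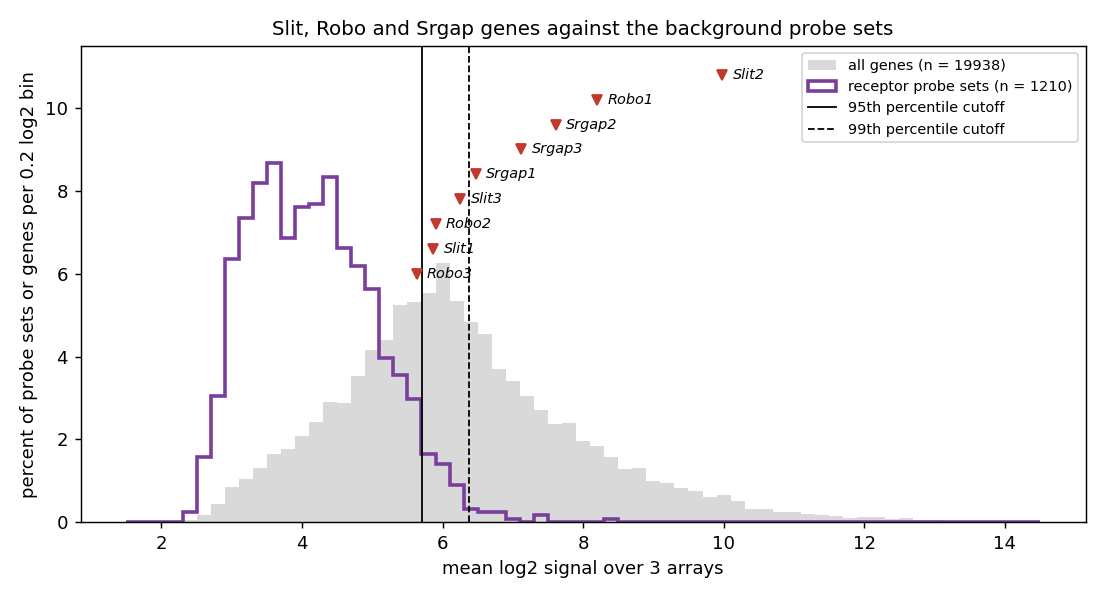
Percent of all genes (grey) and of receptor probe sets (purple line) per bin of mean log2 signal, with the cutoffs as vertical lines and the 9 members as red triangles at their means (the height of a triangle has no meaning). Robo3, Slit1, Robo2 and Slit3 lie in the upper tail of the receptor probe sets, whose highest mean is 8.43, and only Slit2 at 9.98 lies beyond all of them among the members.

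In the reference gene table, Slit2 holds the microRNA gene Mir218-1 and Slit3 holds Mir218-2, each on the strand of its host. Their shared product miR-218 is known to repress Robo1 and Robo2 in vertebrates. These genes are not members, and were named after their values were seen. The mature RefSeq sequences (GRCm38.p6) are shown because both genes give the same 5p arm and differ in the 3p arm. The seed, bases 2 to 8, is in capitals.
mmu-miR-218-5p: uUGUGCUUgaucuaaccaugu
mmu-miR-218-1-3p: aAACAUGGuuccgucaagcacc
mmu-miR-218-2-3p: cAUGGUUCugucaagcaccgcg
The Mir218-1 probe set read 5.68, 7.21 and 8.87 on arrays 1, 2 and 3. The lowest was on array 1 and the highest on array 3, a range of 3.19 log2 units that only 15 genes, itself included, reached. Its mean of 7.25 ± 1.60 (SD, n = 3) did not pass (limma, adjusted p = 0.11). Slit2, the host gene, ranged over 0.25 log2 units and was highest on array 2. Mir218-2 read 4.03 on every array and did not pass, and 53.0% of receptor probe sets read higher. Whether these probe sets read the microRNA, its precursor or the host transcript was not tested.

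The partners of the pathway were taken from lists of proteins known to bind or act with Slit or Robo. Of 14 surface and ligand partners, 12 passed, against 56.1% of all genes, and 10 passed at the 99th percentile, against 36.1%. The list's median was 7.21. Ndfip1, an adaptor known to send Robo1 to degradation, read 9.81, 9.81 and 9.57 (mean 9.73 ± 0.14, SD, n = 3). Adam10, a protease whose fly relative cleaves Robo, read 8.45 ± 0.03, the chemokine receptor Cxcr4 8.06 ± 0.19 and the Slit-binding dystroglycan gene Dag1 7.99 ± 0.25. Ndfip2, a relative of Ndfip1, read 9.05, 7.27 and 7.05, high on array 1, and its other probe set read 5.12 on every array. Gpc1, a glypican that binds Slit2, read 6.09 on every array and passed 0.38 log2 units above the cutoff.

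Of the surface partners, 2 did not pass. Dcc, the netrin receptor that Robo silences in axons, read 5.74, 5.71 and 5.74, 0.02 log2 units above the mean cutoff (limma, adjusted p = 0.3). Nell2, a ligand of Robo3, read 4.69 on every array (limma, adjusted p = 1), so that neither Robo3 nor this ligand passed. Ntn1, the netrin ligand of Dcc, read 6.28 ± 0.02 and passed, as did Plxna1 at 7.42 ± 0.32 and Flrt3, a Robo1 co-receptor, at 6.55 ± 0.04 (SD, n = 3 each). Ndfip2, Gpc1, Ntn1, Plxna1 and Flrt3 were named after their values were seen.

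Of 19 measured intracellular partners, 18 passed, against 56.1% of all genes, and 14 passed at the 99th percentile, against 36.1%. Their median was 7.45. Among them were the GTPases on which Srgap proteins act: Cdc42 at 11.65 ± 0.15, Rhoa at 11.24 ± 0.17 and Rac1 at 10.54 ± 0.04 (SD, n = 3 each). Pfn1, the actin-binding profilin, read 11.30 ± 0.33. The lowest that passed, Arhgap39, the mammalian relative of a fly Robo-binding GTPase-activating protein, read 5.93 ± 0.01. Arhgap4, a further relative of the Srgap family, was the exception at 5.24 on every array (limma, adjusted p = 1).

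**Figure D3:**
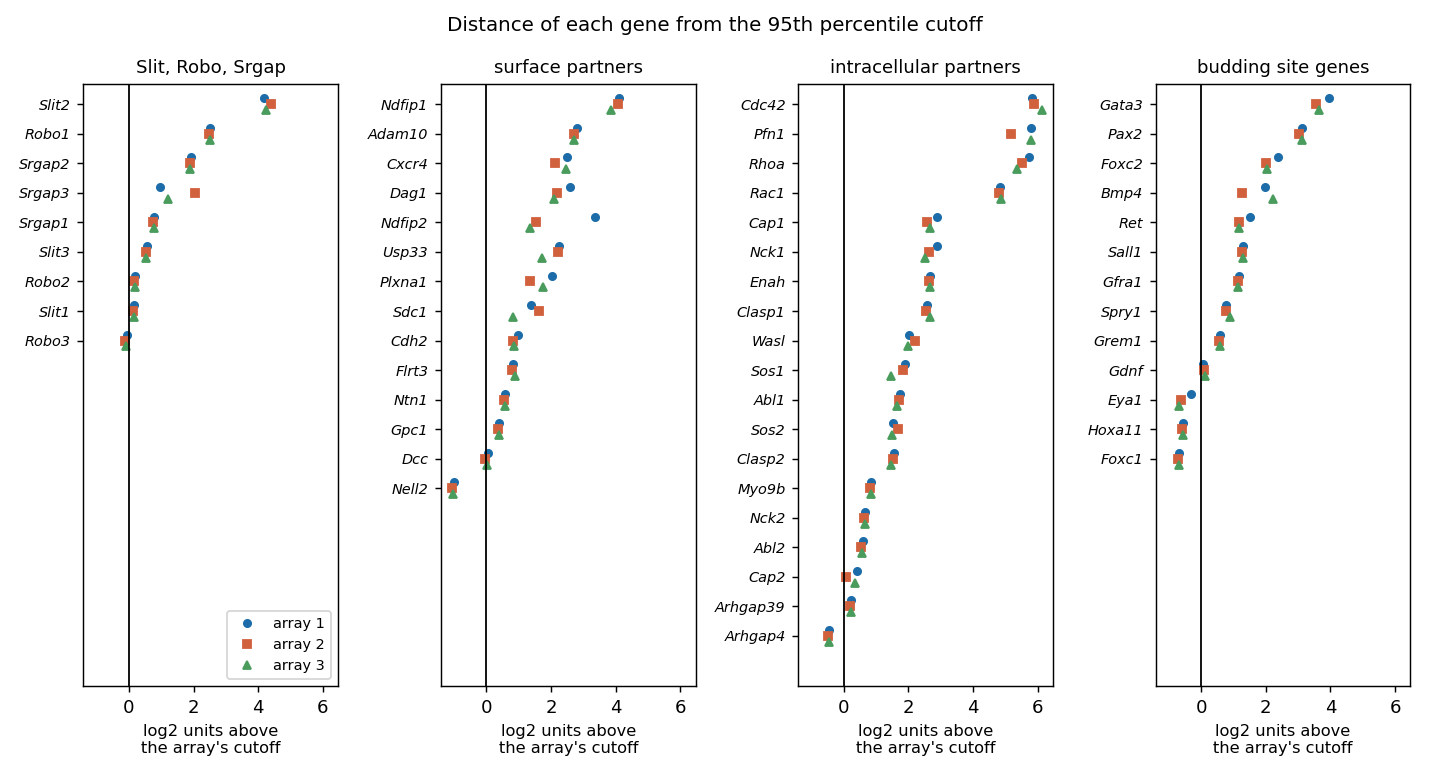
Distance of each gene from the 95th percentile cutoff of the same array, in log2 units, for the 9 members, the surface and intracellular partners and the budding site genes; symbols mark arrays 1, 2 and 3, and the vertical line is the cutoff. In the first panel Slit2 stands 4.27 units above the line on average and Robo3 just below it, and Srgap3 shows the widest scatter.

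The genes around the budding site, where Slit2 and Robo2 are known to act, passed in 10 of 13 measured cases, where 56.1% of all genes did. At the 99th percentile 8 of the 13 passed, against 36.1% of all genes. Gata3, Pax2 and Ret of the duct, the Ret co-receptor gene Gfra1 and the transcription factor gene Sall1 passed, with Ret at 7.21, 6.89 and 6.89 on arrays 1, 2 and 3. The Ret signalling inhibitor gene Spry1 passed at 6.52 ± 0.08. The Bmp4 gene, whose protein counters budding, read 7.68, 7.01 and 7.92, and its antagonist Grem1 read 6.28 on every array, and both passed. Of the Foxc genes, which restrict the Gdnf domain in the mouse, Foxc2 read 7.84 ± 0.19 and passed, while Foxc1 read 5.01 on every array and did not. Gdnf itself read 5.75, 5.83 and 5.83, which is 0.09 log2 units above the cutoff (limma, adjusted p = 0.018). However, 53 receptor probe sets, or 4.38%, had a higher mean than Gdnf, and Gdnf did not pass at the 99th percentile. The mesenchymal regulators Eya1 at 5.18 ± 0.19 and Hoxa11 at 5.14 on every array did not pass.

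Markers of the sorted tissue and of other cells were read beside the members. The share to set their counts against is the 56.1% of all genes that passed. All 13 duct markers passed, with Calb1 at 11.71 ± 0.03 and Epcam at 9.05 on every array. All 11 endothelial markers passed too, Robo4 among them at 6.46, 6.03 and 6.68. Each of the 11 was lowest on array 2, where their median was 7.27. On arrays 1 and 3 the median was 8.22 and 8.16. Slit2 and Srgap3, the only members that varied, were instead highest on array 2. The Slit2 range of 0.25 log2 units was small, and 21.3% of all genes, tied ones included, had one at least as large. The duct list averaged 8.18, 8.09 and 8.13 on arrays 1, 2 and 3. The red cell list averaged 7.42, 5.49 and 5.50 on arrays 1, 2 and 3, with medians of 6.41, 5.74 and 5.74. Both Slit2 and Srgap3 were lowest on array 1. Of 5 measured red cell genes 1 passed, Gata1 at 6.06 ± 0.05. The globin genes Hbb-y, Hba-x and Hbb-bh1 were highest on array 1, with Hbb-y at 10.02, 5.31 and 5.45. Alas2 read 5.74 on every array, and Gata1 was not higher on array 1. The part of these differences in the Slit2 and Srgap3 values was not tested.

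Other tissues known to express Slit or Robo genes were read through their markers, again beside the 56.1% of all genes that passed. Of 8 neuronal genes 1 passed, Dcx at 6.22 on every array, while Elavl3, Elavl4, Stmn2, Tubb3 and Isl1 did not. Of 7 genes of neural tube progenitors and floor plate 3 passed, Sox1, Dbx1 and Shh. Sox1 read 6.95 on every array, 1.24 log2 units above the cutoff, Dbx1 6.11 on every array and Shh 5.88 ± 0.08. Foxa2, which defines the floor plate, read 5.58 and did not pass. Of 6 genes of paraxial mesoderm 2 passed, Tcf15 and Pax1. In the metanephric mesenchyme, where Robo2 is known to be expressed, 4 of 11 genes passed. Cited1 read 7.71 ± 0.17 (SD, n = 3), 2.00 log2 units above the cutoff, and passed at the 99th percentile as well. Crym at 6.48 ± 0.05, Wt1 at 6.04 on every array and Gdnf were the others that passed, none of them at the 99th percentile. The defining genes Six2 at 5.07 and Osr1 at 4.78 did not. In these bulk samples, fewer cells of a type and less RNA per cell cannot be told apart.

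**Figure D4:**
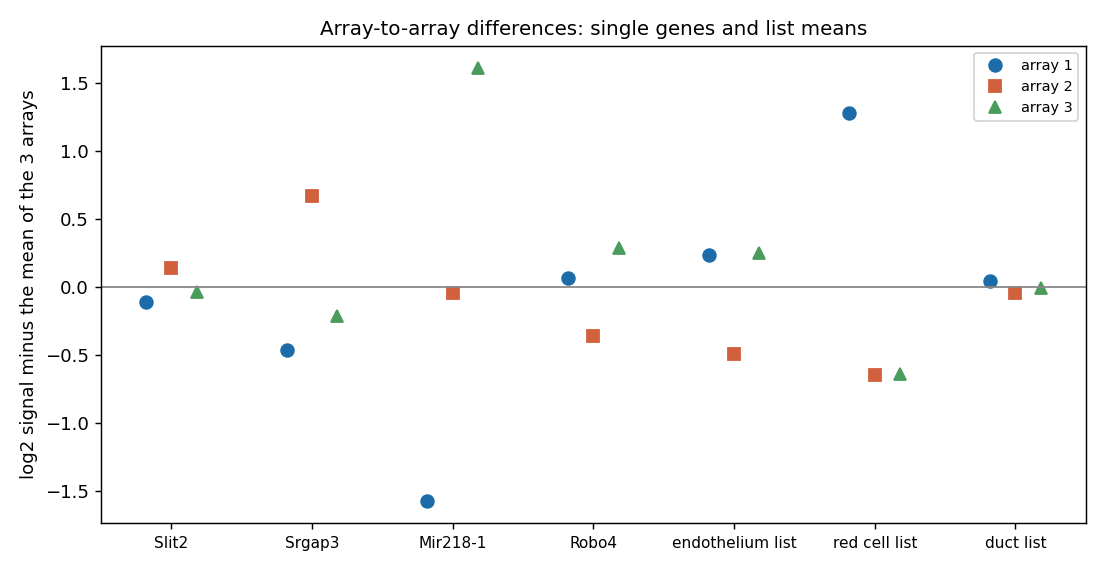
Log2 signal on each array minus the mean of the 3 arrays, for Slit2, Srgap3, Mir218-1 and Robo4 and for the means of the endothelium, red cell and duct lists. Srgap3 is highest on array 2 (7.79, against 6.66 and 6.91), where Robo4 and the endothelium list are lowest, and Mir218-1 spans 3.19 units.

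The members' calls under each setting separated into 3 sets. Slit2, Robo1 and Srgap2 passed in every one of the 12 settings, counting the reported one. Robo3 passed in only 1, the 90th percentile cutoff. The other 5 passed as reported and failed at the 99th percentile and at the raised cutoff, and Slit1 and Robo2 failed in further settings. All 8 passed with olfactory receptors alone as background (53.9% of all genes), with the lowest probe set of each gene (55.0%), with the mean of its probe sets (55.7%), with quantile normalization (56.1%), without array 1 (55.2%) and without array 2 (54.9%). With the spread of untied probe sets given to tied ones 7 passed (53.9% of all genes), and without array 3 6 passed (51.9%). Only Srgap3 had a second probe set, so the settings on probe sets could not move the signal of any other member. For tied members, leaving out an array changed only the cutoff and the fitted spread.

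**Figure D5:**
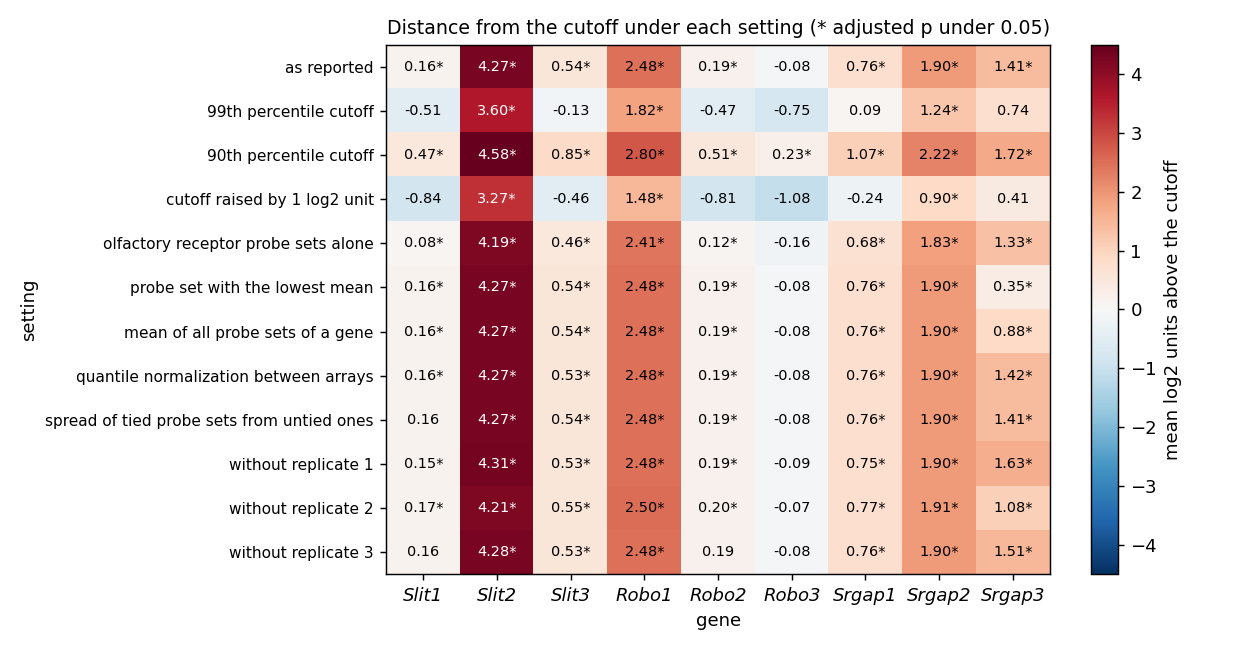
Mean distance of each member from the cutoff in log2 units (colour and number), for the reported setting and 11 alternatives in rows; an asterisk marks an adjusted p under 0.05. The columns of Slit2, Robo1 and Srgap2 carry an asterisk in every row, and Robo3 carries 1.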

How the data were processed

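The deposited table holds 1 log2 signal for each of 35557 probe sets on each of 3 arrays. The authors summarised these log2 values with Affymetrix Expression Console, per the submitters' processing notes. The sources used here do not give the algorithm, its version or any background correction. The log2 scale was read from the values, 1.90 to 14.16. Array medians were 5.85, 5.90 and 5.86, and the arrays correlated at r of 0.986 to 0.990 across genes, which are not independent replicates. No scanner file was used here.

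The platform annotation gave 21789 probe sets a single symbol, which covered 19938 genes, and 1621 several, which were left out; 12147 are unnamed here. Of the single-symbol probe sets, 21698 matched the GRCm38.p6 gene table by Entrez number, and 0 symbols changed. The probe set with the highest mean stood for its gene. Values minus each array's cutoff (5.69, 5.73 and 5.71) entered an intercept-only limma 3.58.1 model (R 4.3.3), with one-sided p-values and Benjamini-Hochberg adjustment over all 21789 probe sets. On the 1210 receptor probe sets themselves, 4.38% passed. That share follows largely from the cutoff, a percentile of these same probe sets, and does not measure an error rate. The test was also run on simulated data in which all probe sets had the same spread and none was tied. That run therefore does not show how the test behaves on tied probe sets.

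The members and lists were chosen with earlier results of these data known. All members and budding site genes are named; of each partner list, the 4 highest, the 2 lowest and those that did not pass. A few list genes are not reported here. The number of arrays limits the precision.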

Additional observations from a re-analysis of the deposited data

How the results depend on the processing

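Signal over background sets the main limit. With the 99th percentile cutoff the count of members was 3 and that of all genes 7193, against 8 and 11194 as reported. A cutoff higher by 1 log2 unit gave 3 members, 5647 genes in all, 19 of 33 partners and 5 of 13 budding site genes, where the reported counts were 30 partners and 10 budding site genes. Leaving out 1 array gave 6 to 8 members, 10354 to 11002 genes in all, 28 to 29 partners and 9 to 10 budding site genes. The fit without array 3 gave all genes one common spread, so it does not measure how far a gene rests on that array. The distance from the cutoff changed sign for Slit1 (-0.51), Slit3 (-0.13) and Robo2 (-0.47) at the 99th percentile, for Slit1 (-0.84), Slit3 (-0.46), Robo2 (-0.81) and Srgap1 (-0.24) at the raised cutoff, and for Robo3 (0.23) at the 90th percentile. These changes follow from moving the cutoff. Of 99 member values under the alternatives, 85 kept direction and call, 6 kept direction but lost the call, and 8 changed sign. Of those that changed sign, all but the Robo3 value also lost the call, and Robo3 gained it. Some of the 85 were fixed beforehand, since only Srgap3 had a second probe set. The signal of a tied member also stays the same whichever array is left out. No paired analysis was possible because there is 1 group.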
